A study of Mus musculus with 6 samples.

Results

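The IgM-positive B cell of normal mouse bone marrow is described here from the wild-type libraries of the series, 2 of its 6 libraries. Every gene name in the table was read in those 2 libraries, 22098 names in all, with 1 transcript standing for each name (the one with the highest mean). The cells came from wild-type C57BL/6 mice 6 weeks old, were sorted by surface IgM from bone marrow, and were not cultured. Poly(A)-enriched messenger RNA was turned into libraries with Illumina TruSeq chemistry. The labels number the libraries as replicates 1 and 2 and do not say whether they came from separate animals, so the spread between them may be technical. The remaining libraries, of mice with a zinc finger of Ikaros removed, were not used, and no genotypes are compared.

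A developing B cell carries IgM at its surface once its heavy chain has paired with a light chain, and before that the heavy chain pairs with a surrogate light chain. The antigen receptor signals through the Cd79a and Cd79b chains, and bound antigen is taken up and shown to T cells on MHC class II. IgM-positive cells of the marrow are known to include immature B cells that were made there and mature follicular B cells that came back through the blood.

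Levels are RPKM, in which reads are divided by transcript length and by the size of the library, so that genes can be compared per length. Paired values are given with replicate 1 before replicate 2. A name is called on when it has at least 1 RPKM in both libraries. By that rule 9865 names, or 44.6%, were on, and 8640 names, or 39.1%, were listed at 0 in both. The 44.6% is the share to set beside every count of members that were on. The number of reads behind the values is unknown, and a name listed at 0 is therefore not shown to be absent. Across the 10056 names with a mean of at least 1 RPKM, Pearson's r between the libraries was 0.983 on the log2(RPKM + 0.5) scale, and Spearman's rho was 0.985. This is a correlation across genes, which are not independent replicates. Of these names 110, or 1.09%, were over 2-fold apart, and 49.7% were higher in replicate 1.

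The label was checked against B cell markers. Cd79b had 2227 and 2132 RPKM, Cd79a 856 and 759.5, and Ms4a1, the CD20 antigen of B cells, 1056 and 1047. Cd74, the invariant chain of MHC class II, had 7549.7 and 6109 RPKM, and Vpreb3, a protein of the B lineage that binds immunoglobulin chains in the cell, had 581 and 612. All 5 markers lay among the 32 highest names of the table. Ighm and Ighd, which encode the IgM and IgD heavy chains, were not analysed here.

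The upper range was held by few names. Of all names, 5776 reached a mean of 10 RPKM, 406 reached 100 and 15 reached 1000, and the median of the names that were on was 13. The 100 highest names held 22.4% and 21.7% of the summed RPKM, and 859 names held 50% of it. Of the 100 highest names in each library, 88 were the same. Cd74 was the highest name of all and alone held 2.62% and 2.17% of the summed RPKM.

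Tmsb4x, thymosin beta, which binds actin monomers, was second with 3592 and 2990 RPKM. Coro1a, an actin-binding protein of blood cells, had 1125 and 989.7, Pfn1, profilin, 745 and 1164, and Actb, beta-actin, 786 and 875. Pfn1 and Actb were higher in replicate 2, and Tmsb4x and Coro1a in replicate 1. Among small surface proteins, Ly6d had 1608 and 1545 RPKM, Cd52 1212 and 915 and Ly6e 931 and 839. Cd37, a tetraspanin of mature B cells, had 992 and 1200.2. Rac2, Arhgdib, Msn and Lsp1, which regulate the actin skeleton or link it to the membrane, ranged in mean level from 379 to 800 RPKM.

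**Figure D1:**
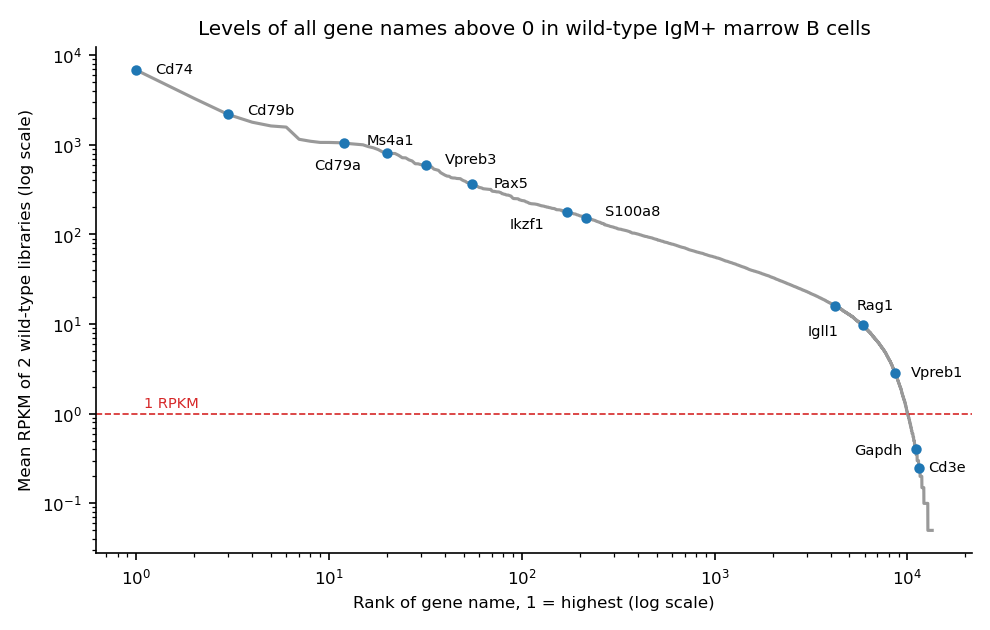
Mean RPKM of the 2 wild-type libraries (vertical axis, log scale) against the rank of the gene name (horizontal axis, log scale) for all names above 0, with 13 named genes as points. The line falls slowly from Cd74 through Cd79b, Pax5 and Ikzf1, and Cd3e and Gapdh lie under the dashed line at 1 RPKM.

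The antigen receptor and its coreceptors were on almost without exception. Of 22 members measured, 21 were on, with a median of 238 RPKM against 13 for all names that were on. Cd81, a tetraspanin, had 112 and 104 RPKM, and Cr2, a complement receptor, had 24.7 and 23.1, so Cr2 was the lower in both libraries. The inhibitory receptors Cd72 with 512 and 689.5, Cd22 with 318 and 327 and Siglecg with 242 and 319.5 were all high and all higher in replicate 2. Faim3, the receptor for IgM that is now called Fcmr, had 588 and 606, and Fcrla, an Fc receptor-like protein kept inside B cells, had 412 and 370. Fcgr2b, the inhibitory receptor for IgG, was listed at 74.1 and 57.2, a level that is uncertain because it has 4 near copies (nearly identical transcripts of other genes). Cd79a and Siglecg have 1 near copy each, so their levels are uncertain as well. The lowest members were Ifitm3 with 3 and 5.5, Cd5 with 2.6 and 3.5, and Ifitm1, the member that was not on, with 0 and 0.1.

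Signalling genes behind the receptor were on in 38 of 38 cases, with a median of 82.4 RPKM. The phosphatase Ptpn6, known as SHP-1, which dampens receptor signals, was the highest with 620.3 and 738 RPKM. The kinase Syk, named Sykb in the table, followed with 502 and 444, and Csk, which holds Src-family kinases inactive, with 389 and 359.8. Among the Src-family kinases, Blk had 211 and 227 RPKM and Lyn 169 and 153, while Fyn had 17.5 and 14.7 and Fgr 7.4 and 10.7. Blk and Lyn lay above Fyn and Fgr in both libraries, but Lyn has 1 near copy and its level is uncertain. The adaptor Blnk had 188 and 195, the adaptor Bank1 181 and 144, the phospholipase Plcg2 199 and 175 and the kinase Btk 119.6 and 103. Plcg2 stood far above its relative Plcg1, which had 8.1 and 9.5. Vav3, with 3.4 and 2.8, was the lowest member of the list.

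MHC class II presentation was the list with the highest median, 261 RPKM, and 14 of 14 members were on. The alpha chain H2-Aa had 1780.3 and 1467 RPKM, and the beta chains H2-Ab1 and H2-Eb1 had 1064 and 1062 for H2-Ab1, and 871 and 731 for H2-Eb1. H2-Eb2, a further beta chain gene, had 33.6 and 29.2, far under H2-Ab1 and H2-Eb1 in both libraries. Genes of H2-DM, a peptide exchange factor, and of H2-O spanned a wide range. H2-DMa had 230.1 and 270.4, H2-Oa 133 and 135 and H2-Ob 288 and 257. H2-DMb2 had 136 and 121, and H2-DMb1 only 41.9 and 32, close to H2-Eb2, but each H2-DMb gene has 1 near copy, so their levels are uncertain. Ifi30, a thiol reductase of the endosome, had 506 and 724, and Ctss, the protease that trims the invariant chain, had 329 and 269. Ciita, the transactivator of the whole group, had only 77.4 and 70.8, under the classical chains H2-Aa, H2-Ab1 and H2-Eb1 in both libraries.

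MHC class I presentation was on in 17 of 17 members, with a median of 112 RPKM. B2m, the light chain shared by all class I molecules, was the fourth name of the table with 1802 and 1772. The heavy chains H2-K1 and H2-D1 had 589 and 638 for H2-K1, and 483 and 554 for H2-D1, both under B2m and both a little higher in replicate 2. H2-D1 has 1 near copy, so its level is uncertain. The immunoproteasome subunits Psmb8, Psmb9 and Psmb10 had 175 and 203 for Psmb8, 125 and 142 for Psmb9, and 88.2 and 86.7 for Psmb10. Tap1, a chain of the peptide transporter, had 101 and 128, and Nlrc5, the class I transactivator, had 15.7 and 21. Nlrc5 was the lowest member by its mean, next to the heavy chain H2-Q7 with 17.8 and 21.3, whose near copies were not searched.

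Promoters of presentation genes are shown because they carry a short motif that these genes are known to use, the CCAAT box, read on both strands as CCAAT or ATTGG. Windows came from the RefSeq promoter table of the build GRCm38.p6, which held 15931 of the 20272 coding names, and the 250 bases before the start were searched. The letters were found in 12 of 15 class I members and 7 of 11 class II members with a window, against 36.4% of all windows, in 4 of 19 members of the receptor list and in 6 of 18 of the pro-B and pre-B list. The octamer, TATA box and GC box were searched as well, and the CCAAT box and the windows printed here were chosen after the matches were seen. The 150 bases before the start are printed 5′ to 3′ on the strand of the gene, with the CCAAT box in capitals.
H2-Aa (chr17:34287824-34287973, minus strand): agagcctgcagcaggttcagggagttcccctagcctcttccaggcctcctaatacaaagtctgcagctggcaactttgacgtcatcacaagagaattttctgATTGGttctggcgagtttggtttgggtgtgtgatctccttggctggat
H2-Eb1 (chr17:34305717-34305866, plus strand): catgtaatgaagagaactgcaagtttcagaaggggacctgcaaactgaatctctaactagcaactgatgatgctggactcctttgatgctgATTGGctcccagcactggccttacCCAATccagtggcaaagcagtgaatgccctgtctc
H2-Ob (chr17:34238755-34238904, plus strand): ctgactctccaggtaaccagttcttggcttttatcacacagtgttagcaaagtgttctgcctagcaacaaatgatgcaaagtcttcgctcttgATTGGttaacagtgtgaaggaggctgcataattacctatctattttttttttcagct
H2-K1 (chr17:34000348-34000497, minus strand): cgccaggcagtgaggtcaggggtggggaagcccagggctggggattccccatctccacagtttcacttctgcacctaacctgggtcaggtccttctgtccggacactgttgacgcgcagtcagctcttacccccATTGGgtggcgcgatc
B2m (chr2:122147537-122147686, plus strand): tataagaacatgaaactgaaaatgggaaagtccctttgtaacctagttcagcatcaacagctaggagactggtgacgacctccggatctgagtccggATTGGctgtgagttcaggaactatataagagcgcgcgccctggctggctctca
In H2-Aa, H2-Ob and B2m the match begins 48, 57 and 53 bases before the start, and in H2-Eb1 there are matches at 59 and at 35 bases. H2-K1 has its match closer in, at 16 bases. A match is a run of letters and is not shown here to be a site that a factor binds.

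Transcription factors of the B lineage were on in 37 of 41 cases, or 90.2%, against 44.6% of all names. Their median was 62.6 RPKM. Spib, an Ets factor of B cells, was by far the highest with 906 and 1148 RPKM. Its relative PU.1, named Sfpi1, had 78.3 and 78.8, below Spib in both libraries. Pou2af1, the coactivator OBF-1 of octamer factors, had 409 and 403, above its partners Pou2f2 with 72.8 and 78.1 and Pou2f1 with 8.8 and 11.1. Pax5, which fixes B cell identity, had 297 and 442 and was higher in replicate 2, and Ebf1, which acts before it, had 93.9 and 108. Ets1 had 326 and 258, Irf8 245 and 199 and Irf4 66 and 62.9.

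The Ikaros family was led by Ikzf3, Aiolos, with 288 and 308 RPKM, followed by Ikzf1, Ikaros itself, with 177 and 179. The order was the same in both libraries. Ikzf5 had 4.9 and 4.5, Ikzf2 0 and 0.1, and Ikzf4 was listed at 0. Besides Ikzf2 and Ikzf4, the members that were not on were Ebf4, listed at 0, and Zbtb20 with 0.8 and 1.2. Tcf3, the E2A factor that starts the B cell program, had 130 and 166, above Tcf12 with 42.2 and 39.6 and Tcf4 with 20.9 and 24.1.

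Genes of earlier stages were low apart from Vpreb3. The list of pro-B and pre-B genes had 13 of 19 members on, or 68.4%, against 44.6% of all names. The median of the list was 6.6 RPKM. Igll1 and Vpreb1, the parts of the surrogate light chain, had 5.7 and 13.7 for Igll1, and 1.9 and 3.8 for Vpreb1, and Vpreb2 0.6 and 0.6. Near copies of Igll1, Vpreb1 and Vpreb2 were not searched, so their low values are uncertain. Rag1 and Rag2, the recombinase that cuts the receptor genes, had 14.5 and 17.6 for Rag1, and 1.4 and 1.8 for Rag2. Dntt, which adds bases at the joints, had 2.1 and 11.1, over 2-fold higher in replicate 2. Il7r, the interleukin receptor that pro-B cells depend on, had 14.8 and 11.5, and Kit, a growth factor receptor of progenitors, 0.3 and 0.7. Of the 14 members with a mean of at least 1 RPKM, 11 were higher in replicate 2, while 49.7% of all such names were higher in replicate 1.

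Vpreb3 is printed because it stood at rank 32 while none of Igll1, Vpreb1 and Vpreb2 reached a mean of 10 RPKM. That gap is uncertain, since near copies of Igll1, Vpreb1 and Vpreb2 were not searched. The Vpreb3 window is also the only one among the highest 100 names that holds the octamer ATGCAAAT (reverse complement ATTTGCAT), the motif of Pou2f factors. The octamer was in 1 of 71 windows of the highest 100 names, in 1.64% of all windows, and in 0 of 19 windows of the receptor list. None of the motifs named here contains another. The octamer, in capitals, begins 45 bases before the start.
Vpreb3 (chr10:75948150-75948299, plus strand, GRCm38.p6): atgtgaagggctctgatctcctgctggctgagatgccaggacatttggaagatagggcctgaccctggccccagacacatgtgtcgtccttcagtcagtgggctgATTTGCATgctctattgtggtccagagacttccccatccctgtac

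Genes of the immature, transitional and follicular stages were on in 22 of 22 cases, with a median of 82.2 RPKM. Cd93, a marker of immature and transitional cells, had 41.5 and 42.4 RPKM, and Cd24a, high on the same cells, 127 and 147. Fcer2a, the CD23 antigen of follicular cells, had 253 and 229. Markers of both the newly made and the follicular cell were therefore on in each library. Genes tied to the marginal zone and B1 subsets were on in 17 of 17 cases with a median of 16.2 RPKM. Plac8 with 321 and 319.8 and Pld4 with 223 and 278 led that list, and Zbtb32 with 2.7 and 1.5 and Cd5 were its lowest members.

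The genes of the germinal centre were mostly low. Of 14 members 8, or 57.1%, were on, against 44.6% of all names, with a median of 1.78 RPKM. Mybl1, a Myb-family factor, had 0.7 and 0.7 RPKM. Il21r, with 102 and 99.3, and Neil1, a DNA repair glycosylase, with 35.1 and 40.9, were the exceptions.

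The plasma cell list differed between the libraries in 1 direction. All 20 members with a mean of at least 1 RPKM were higher in replicate 1, against 49.7% of all such names. Of the 20 members 5 were over 2-fold apart, against 1.09% of all such names. Igj, the joining chain of secreted IgM, had 414 and 1.1 RPKM, the largest gap between the libraries among names that reached 10 RPKM in either. Fkbp11, a chaperone of secretory cells, had 13.8 and 2.6, Xbp1, the factor that builds the secretory apparatus, 114 and 54.1, and Tnfrsf17, the BCMA receptor of plasma cells, 2.8 and 0. Hsp90b1 and Hspa5, chaperones found in every cell, had 415 and 251 for Hsp90b1, and 281 and 196 for Hspa5. The summed RPKM of the list was 2091 in replicate 1 and 1056 in replicate 2. In bulk RNA, fewer cells of a type and less RNA per cell cannot be told apart.

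The survival receptors for BAFF were unequal. Tnfrsf13c, the BAFF receptor itself, had 418 and 434 RPKM and Tnfrsf13b, known as TACI, 25.1 and 25.4. Cd40 had 75 and 89.5. In the whole list of BAFF, CD40 and NF-kB genes 23 of 26, or 88.5%, were on, against 44.6% of all names. The median of the list was 31.1 RPKM. The ligands Tnfsf13b and Tnfsf13, which other cells make, had 0.1 and 0.2 for Tnfsf13b, and 0.1 and 0 for Tnfsf13. Nfkb1 had 113 and 102, Nfkb2 76.8 and 95.3, Rela 60.5 and 58 and Rel 37.8 and 35.3. Birc3, an inhibitor of apoptosis bound to Traf proteins, had 94.5 and 75.4, above Birc2 with 27.6 and 21.2 in both libraries.

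In the Bcl2 family, which sets the threshold of cell death, 11 of 21 members, or 52.4%, were on, against 44.6% of all names. Mcl1, which keeps cells alive, was far the highest with 312 and 293 RPKM. Bcl2 had 12.8 and 11.5 and Bcl2l1, which encodes Bcl-xL, 12.8 and 17.8. The effectors of death Bax and Bak1 had 71.1 and 73.3 for Bax, and 42.6 and 53 for Bak1. Bmf was the highest of the triggers with 54.4 and 37.3, and Bcl2l11, known as Bim, had 11.1 and 6.9, both higher in replicate 1. The Bcl2a1 genes lay between 0 and 0.2 RPKM, but each has 3 or 4 near copies, so their levels are uncertain.

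Of the Toll-like receptors and partners 17 of 23, or 73.9%, were on, against 44.6% of all names. Unc93b1, which carries nucleic acid sensors to the endosome, had 407 and 446 RPKM. Tlr9, the sensor of DNA, had 103 and 116, Tlr1 36.2 and 26.5 and Tlr7, the sensor of RNA, 13.2 and 13. Tlr9 was the highest receptor of the family in both libraries. Cd180 and Ly86, the RP105 complex of B cells, had 126 and 129 for Cd180, and 219 and 157 for Ly86. Tlr3, Tlr5, Tlr8 and Tlr13 were under 1 RPKM, Tlr11 was listed at 0, and Cd14, a partner of Tlr4 on myeloid cells, had 0.4 and 0.2.

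Receptors that guide migration were on in 11 of 28 cases, a share close to the 44.6% of all names. Cxcr4, the receptor that keeps cells in the marrow, had 249 and 168 RPKM, Cxcr5, which leads to follicles, 150.1 and 121, and S1pr1, the receptor for exit into blood, 129 and 125. Ccr7 had 90.4 and 87.6, Cnr2, a cannabinoid receptor of B cells, 82.5 and 70.5, and S1pr4 55.5 and 51.5. The other 17 receptors measured did not reach 1 RPKM in both libraries. Ccr4 and Ccr8, receptors of T cells, were listed at 0. Cxcr3 was apart in the libraries, with 5 and 0.6.

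Integrin subunits were on in 10 of 26 cases, a share close to the 44.6% of all names. Itgal and Itgb2, which form LFA-1, had 61.5 and 53.7 for Itgal, and 61.3 and 59.2 for Itgb2 in RPKM, and Itga4, with its partners Itgb7 and Itgb1, 52.2 and 44.8 for Itga4, 66.2 and 43 for Itgb7, and 17 and 14.9 for Itgb1. The next subunits were lower: Itgb3 had 8.9 and 12.9 and Itgav 6.3 and 6.5. Itga1, Itga7, Itga8, Itga11, Itgb6 and Itgb8 were listed at 0 in both libraries.

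Cytokine receptors and Jak kinases were on in 29 of 41 cases, or 70.7%, against 44.6% of all names. Il2rg, the common gamma chain, was the highest with 229 and 208 RPKM, followed by Jak1 with 142 and 103, Il21r, Tgfbr2 with 108 and 87.7, Il10ra with 99.1 and 80.1 and Il4ra with 84.7 and 83.7. Jak1 was higher than Jak2 with 35.4 and 20.8, Jak3 with 14.4 and 13.1 and Tyk2 with 23.8 and 25.2 in both libraries. Epor, the receptor for erythropoietin, had 0.3 and 0.3.

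Most genes of dividing cells were on but low. Of the 38 members of the proliferation list 36 were on, with a median of 8.35 RPKM, and 33 of the 36 with a mean of at least 1 were higher in replicate 2. None was over 2-fold apart, against 1.09% of all names with such a mean, of which 49.7% were higher in replicate 1. Tubb5, a tubulin that is also among the common reference genes, was far the highest with 193 and 207 RPKM. Mcm3 and Mcm6, of the replication helicase, had 35.4 and 44.9 for Mcm3, and 38.5 and 43.2 for Mcm6. Top2a, a topoisomerase of dividing cells, had 29.9 and 40.2, and Mki67, the Ki-67 antigen, 21.9 and 25.7. Stmn1 had 0.1 and 0.2 and Ccnb1 0.6 and 0.6, and these 2 genes, with 1 and 4 near copies, are uncertain, as is Mki67 with 1. Among G1 regulators, Ccnd2 with 54.9 and 71.4 and Ccnd3 with 48.7 and 53.3 were far above Ccnd1 with 1.1 and 1.7. Cdkn1b, the p27 inhibitor of resting cells, had 49.9 and 48.2, and Cdkn2b and Cdkn2d were listed at 0.

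Immediate early genes were higher in replicate 1 in 22 of the 27 members with a mean of at least 1 RPKM, and 4 were over 2-fold apart. Of all names with such a mean, 49.7% were higher in replicate 1 and 1.09% were over 2-fold apart. Fos had 97.5 and 26 RPKM, Jun 34.2 and 12.3 and Ppp1r15a 22.9 and 10.4. Zfp36, which destabilises messenger RNA, was the highest member with 369 and 201, and Dusp2, a phosphatase for MAP kinases, had 234 and 198. Egr1 went the other way, with 33.5 and 38.5. Interferon response genes were higher in replicate 2 in 23 of 23 such members, with a median log2 difference of -0.67 (replicate 1 minus replicate 2). Irf9 had 61.5 and 73.7, while Usp18 had 5.2 and 13.5 and Mx1 7.8 and 16.9. The Usp18 and Mx1 values were over 2-fold apart. What set these lists apart between the libraries was not tested.

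**Figure D2:**
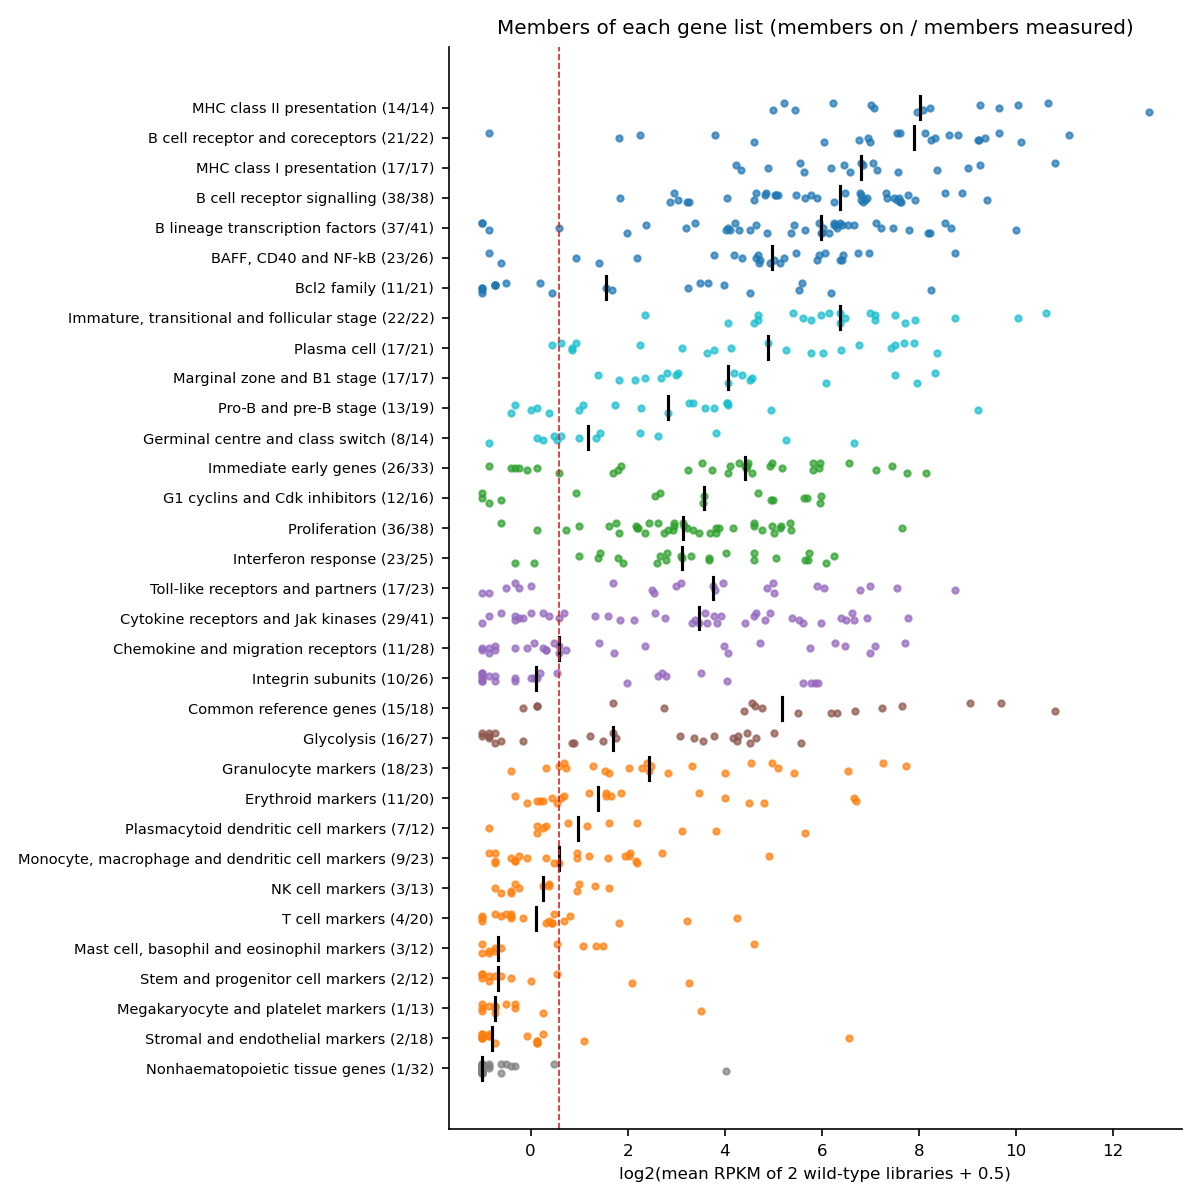
Each point is a member of a gene list at log2(mean RPKM + 0.5) over the 2 wild-type libraries, each black bar is the median of the list, and the dashed line is 1 RPKM. Colours mark the kind of list (blue B cell lists, cyan stages, green states, purple receptor families, brown housekeeping, orange other cells, grey other tissues). The medians fall from 261 RPKM for MHC class II presentation to 0 for genes of tissues outside the blood.

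Whole families were silent by this rule. Of 1121 olfactory receptor genes, 1113 were listed at 0 and 1 was on, Olfr99 with 1.2 and 1 RPKM. Without replicate 1 there were 2 on, the other being Olfr56 with 0.8 and 2.5. All 315 vomeronasal receptors and all 52 keratin-associated proteins were listed at 0. Defensins had 0 of 58 members on, taste receptors 0 of 38 and the killer lectin-like receptors of NK cells 0 of 35, against 44.6% of all names. Hox genes had 1 of 39 on, Hoxb4 with 1 and 1.2, and the keratins 1 of 47, Krt222 with 2.7 and 1.6, and without replicate 2 also Krt10 with 1 and 0.9. Without replicate 1 or without replicate 2, 1 killer lectin-like receptor was on. Near copies of the killer lectin-like receptors and of the other families named here were not searched, so their low values are uncertain. Cytochrome P450 genes had 9 of 102 on, led by Cyp4f18 with 85.6 and 64, and potassium channels 9 of 95, led by Kcnab2 with 45.3 and 43.

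Other families were on nearly whole. The heterogeneous nuclear ribonucleoproteins, which package and splice RNA, had 18 of 18 members on, led by Hnrnpl with 197 and 209.9 RPKM. The Gimap GTPases, which support lymphocyte survival, had 8 of 8 on, led by Gimap6 with 303 and 216. All 8 were higher in replicate 1, against 49.7% of all names with a mean of at least 1 RPKM. Mitochondrial ribosomal proteins had 73 of 76 on, translation initiation factors 54 of 58 and proteasome subunits 37 of 40. Psmb8, the immunoproteasome subunit, was the highest of the proteasome genes. In the Ms4a family 5 of 15 were on and Ms4a1 stood far above the next member, Ms4a4c with 33.9 and 26.8. Slam family receptors had 6 of 8 on, or 75%, against 44.6% of all names. They were led by Cd48 with 106 and 101 and Ly9 with 78.9 and 73.6. Histone cluster genes had 6 of 67 on, led by Hist1h1c with 41.7 and 14. Histone messages mostly lack a poly(A) tail, and the libraries were poly(A)-enriched. Whether that bears on this count was not tested, and near copies of the histone genes were not searched. Families were taken by the start of the name, so a few unrelated genes with a like name are counted.

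**Figure D3:**
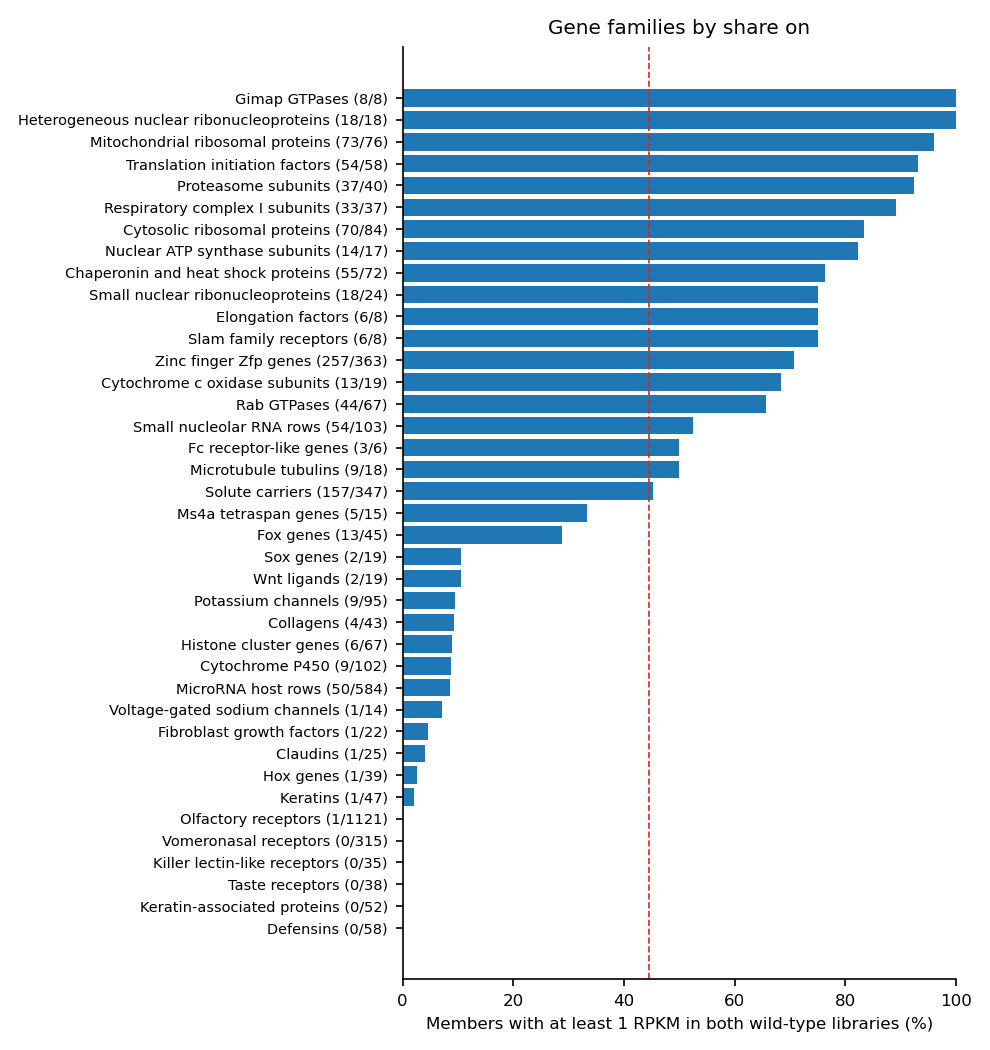
Bars give the percentage of members of each gene family with at least 1 RPKM in both wild-type libraries, with members on and members measured in brackets, and the dashed line is the 44.6% of all gene names. Gimap and hnRNP genes reach 100%, and sensory receptor, defensin and keratin-associated families lie at or near 0.

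Many housekeeping genes with 3 or more near copies in the genome were listed at low values. A near copy is a transcript of another gene with at least 95% identity over at least 200 bases in GENCODE M21. Among 84 cytosolic ribosomal protein genes Rpl8 had 1004 and 997 RPKM, and Rpl10l was listed at 0. The 19 genes with 1 or 2 near copies had a median of 19.6 RPKM, and the 58 genes with 3 or more had 2.8. The 7 genes without any had a median of 4.05, and 3 of them reached 10 RPKM. Rps9, with 1 near copy, had 447 and 444, and Rps15, with 4, had 241 and 199.5.

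Common reference genes were split as well. Of those with sequence, 8 had no near copy and a median of 73.7 RPKM, 3 had 1 or 2 and a median of 72.7, and 6 had 3 or more and a median of 1.68. Gapdh, the glycolytic enzyme often used to normalise, was listed at 0.4 and 0.4 with 78 near copies. Ppia, cyclophilin A, had 0.5 and 0.7 with 20, and Actg1, gamma-actin, 0.8 and 0.4 with 6. Eef1a1, with 9 near copies, had 90.8 and 68. None of the 99 highest coding names with sequence had 3 or more near copies. How reads that fit several places were counted is not given in the sources used here, so levels of genes with near copies are uncertain, and what the copies contribute was not tested. In glycolysis 16 of 27 members, or 59.3%, were on, against 44.6% of all names. They were led by Aldoa with 48.5 and 45.1, Gpi1 with 31.5 and 32 and Pkm2 with 22.1 and 27.1. Eno1, with 3 near copies, was listed at 0 and 0.2.

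**Figure D4:**
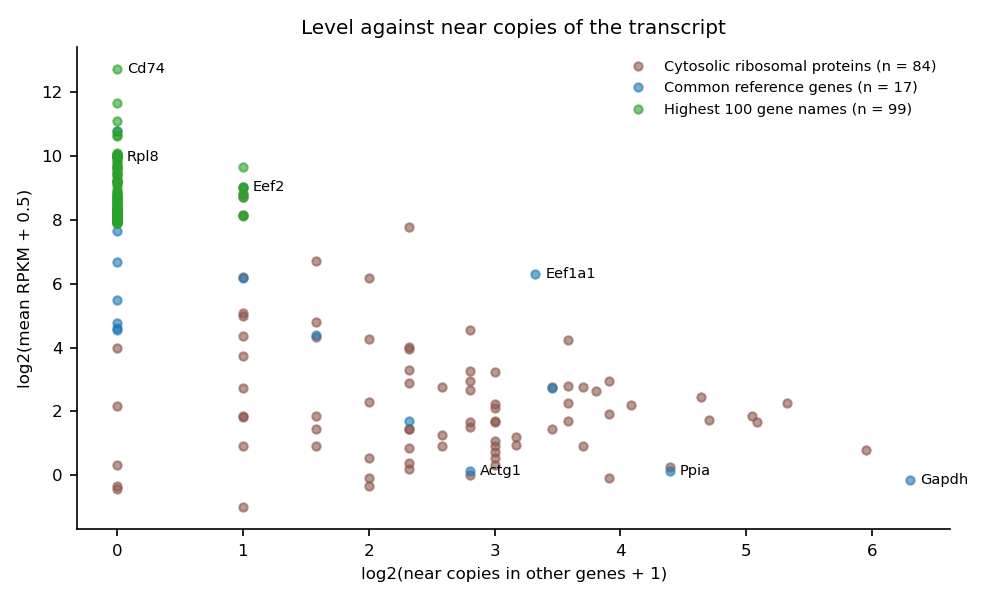
Log2(mean RPKM + 0.5) against log2(near copies + 1) for 84 cytosolic ribosomal protein genes, 17 common reference genes and the 99 highest coding names with sequence, 1 point per gene. The highest names sit at 0 or 1 on the horizontal axis, and Gapdh, with 78 near copies, lies lowest of the reference genes.

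Traces of other blood cells were small except for granulocytes and red cells. Of 165 distinct markers of other cells, 60 were on, a lower share than the 44.6% of all names, and 32 of these reached 3 RPKM in both libraries. Granulocyte markers had 18 of 23 members on, led by S100a9 with 179 and 247 RPKM and S100a8 with 119 and 188, the subunits of calprotectin. Ngp, a protein of neutrophil granules, had 60.2 and 124, Lcn2 27.6 and 39.7 and Ltf, lactoferrin, 22.6 and 39.4. Of 21 members with a mean of at least 1 RPKM, 19 were higher in replicate 2 and 8 were over 2-fold apart. Among all names with such a mean, 49.7% were higher in replicate 1 and 1.09% were over 2-fold apart. The list summed to 501 RPKM in replicate 1 and 808 in replicate 2.

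Red cell messages were present in both libraries, and most were somewhat higher in replicate 2. Of 13 erythroid markers with a mean of at least 1 RPKM, 11 were higher in replicate 2 and 0 were over 2-fold apart. Their median log2 difference was -0.36 (replicate 1 minus replicate 2), and 49.7% of all such names were higher in replicate 1. Hbb-b1 and Hbb-b2, beta-globins, had 101 and 101 for Hbb-b1, and 104 and 103 for Hbb-b2 in RPKM. The beta-globin row Beta-s, named after its values were seen, had 242 and 228. Hbb-b1 has 1 near copy, and those of Hbb-b2 and Beta-s were not searched, so these levels are uncertain. The paired alpha-globin genes Hba-a1 and Hba-a2, which are near copies of each other, were each listed at 2.3 and 2.6. Alas2, which makes haem in red cells, had 18.3 and 25.9. Of 20 erythroid markers 11, or 55%, were on at 1 RPKM, against 44.6% of all names, and 6 were on at 3 RPKM. The list summed to 285 and 314 RPKM. Klf1 and Gata1, the regulators of the lineage, had 0.5 and 0.7 for Klf1, and 0.3 and 0.6 for Gata1.

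Most markers of T cells were under 1 RPKM, with Lck and Cd247 the highest exceptions. Cd3d, Cd3e and Cd3g, the chains of the T cell receptor complex, had 0.2 and 0.3 for Cd3d, 0.2 and 0.3 for Cd3e, and 0.3 and 0.5 for Cd3g in RPKM, and Gata3, Bcl11b and Trat1 were listed at 0. Of the 20 members 4 were on: Lck with 17.4 and 19.9, Cd247 with 8.3 and 9.3, Foxp3 with 3.2 and 2.9 and Tcf7 with 1 and 1.5. The kinase Lck and the signalling chain Cd247 stood above the Cd3 chains in both libraries. The list summed to 36.4 and 40.8 RPKM, and 2 members were on at 3 RPKM and 9 at 0.5 RPKM. Of the 13 markers of NK cells 3 were on, the highest being Ccl5 with 1.5 and 3.6. Ncr1, the defining receptor of NK cells, had 0.2 and 0.4, and the list summed to 7.8 and 14.6 RPKM. Without replicate 1, 6 of the NK markers were on, and 0 reached 3 RPKM in both libraries.

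Monocyte, macrophage and dendritic cell markers had 9 of 23 members on, or 39.1%, against 44.6% of all names. Lyz2, lysozyme, led with 26.6 and 32.2 RPKM. C1qa, C1qb and C1qc, the complement chains made by macrophages, had 6.2 and 1.8 for C1qa, 6.6 and 1.6 for C1qb, and 5.5 and 1.8 for C1qc, and Vcam1, an adhesion molecule of marrow macrophages, 5.6 and 1.1. Of the 12 members with a mean of at least 1 RPKM, 6 were over 2-fold apart, against 1.09% of all such names. All of those 6 were higher in replicate 1. This was the opposite direction from the granulocyte list. Csf1r, the growth factor receptor of the lineage, had 2.8 and 2.2, and the list summed to 73.8 and 58.2 RPKM. Markers of plasmacytoid dendritic cells had 7 of 12 on, or 58.3%, led by Bst2 with 43.7 and 56. Siglech, the defining receptor of those cells, had 1.1 and 4. That list summed to 69.7 and 98.1 RPKM, most of it Bst2. Of its 7 members with a mean of at least 1 RPKM, 6 were higher in replicate 2, while 49.7% of all such names were higher in replicate 1.

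Mast cell, basophil and eosinophil markers summed to 12.2 RPKM in replicate 1 and 49.8 in replicate 2. Most of that was Prg2, the major basic protein of eosinophils, with 7.8 and 39.5. Epx, the eosinophil peroxidase, had 0.4 and 4.2, and Mcpt4 and Tpsb2, proteases of mast cells, were listed at 0. Of the 12 markers 3 were on, and 5 were on without replicate 1. Megakaryocyte markers had 1 of 13 on, Itgb3, and Pf4, a protein of platelets, had 0.3 and 0.3. Stem and progenitor markers had 2 of 12 on, Slamf1 with 10.4 and 7.7 and Mllt3 with 4.3 and 3.2.

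Stromal and endothelial markers had 2 of 18 on, Pecam1 with 96.9 and 90.7 RPKM and Cdh5 with 1.3 and 2. Pecam1 is also known on B cells. Without replicate 1, 4 of these markers were on. Collagen genes Col1a1 and Col1a2 had 0 and 1.2 for Col1a1, and 0.1 and 1.1 for Col1a2, and Cxcl12, made by marrow stroma, had 0.7 and 0.7. In genes of tissues outside the blood, 22 of 32 were listed at 0 and 1 was on: Mbp, myelin basic protein, with 16.5 and 15.1. Without replicate 2, Epcam with 1.1 and 0.7 was on as well. The gene of Mbp is also known to give transcripts in blood cells.

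Single genes with the widest gap between the libraries belonged to several of these lists. Among names that reached 10 RPKM in either library, the 8 widest gaps towards replicate 1 were at Igj, Fkbp11, Fos, Hist1h1c, Ptpn22 with 35.4 and 8 RPKM, Snord104 with 18.4 and 5.8, Ddit4 with 55.8 and 18.4 and Fam46c with 13.6 and 4.4. Ptpn22 is a phosphatase that limits antigen receptor signals, and Ddit4 restrains the mTOR kinase. Towards replicate 2 they were Prg2, Dntt, Usp18, Igll1, Mpo with 4.8 and 14.2, Retnlg with 13.8 and 32, Cox6a2 with 3.9 and 12.5 and Vasn with 4.1 and 10.3. Mpo and Retnlg are granulocyte genes, and Cox6a2 is on the list of plasmacytoid dendritic cells. The part of other cells in these gaps was not tested.

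**Figure D5:**
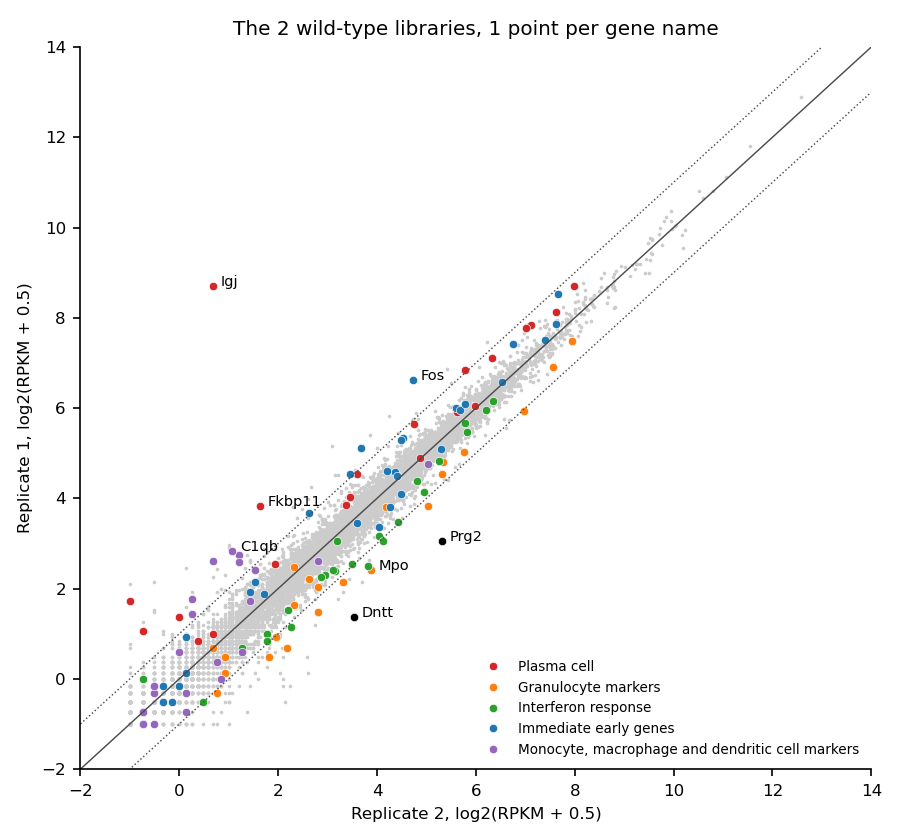
Log2(RPKM + 0.5) of each gene name in replicate 1 (vertical axis) against replicate 2 (horizontal axis). The solid line marks equal values and the dotted lines 2-fold gaps, members of 5 lists are coloured, and Prg2 and Dntt are black. Plasma cell genes (red) lie above the solid line with Igj farthest from it, and most granulocyte genes (orange) lie below it.

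Noncoding rows of at least 200 bases were on in 219 of 1122 cases, or 19.5%. Malat1, a nuclear RNA of most cells, had the highest mean with 83.4 and 120 RPKM, followed by the ribosomal pseudogene Rplp2-ps1 with 91.8 and 92.2. In replicate 1 Malat1 lay under Rplp2-ps1, and LOC624853, with 116.8 and 41.9, lay above both. Gas5 and Snhg1, hosts of small nucleolar RNAs, had 44 and 59.8 for Gas5, and 58.8 and 49.1 for Snhg1. Rows under 200 bases held 0.826% and 0.746% of the summed RPKM, with 104 of 707 on. The highest of them, Mir5107 with 1315 and 989.9, is an 89-base row that lies within Cd74 in the GRCm38.p6 table, and its value cannot be told apart from that of Cd74 messages. Mir142, from a locus known for blood cells, had 25.3 and 15.7.

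The highest coding names were shorter than the other names that were on. RPKM divides reads by transcript length, so rank and length are not independent here. The median transcript length was 1892 bases for the highest 100 coding names, 2517 for the next 900, 2820 for the other names that were on and 1834 for names at 0. Their promoter windows also differed in letters. TATAAA, the TATA box, was in 15 of 71 windows of the highest 100 names, or 21.1%, in 7.06% of the next 900 ranks, in 5.44% of the other names on and in 21.3% of names at 0, against 12.1% of all windows. The GC box GGGCGG was in 45.1% of the highest 100, in 62% of the next 900 ranks, in 61.2% of the other names on and in 23.8% of names at 0, against 45.2% of all windows. The ratio of observed to chance-level CpG was 0.54 in the highest 100, 0.76 in the other names on and 0.24 in names at 0 (medians). All motifs were read on both strands in the 250 bases before the start.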

How the data were processed

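The authors deposited 1 table of RPKM per RefSeq transcript with transcript lengths, rounded to steps of 0.1. Reads were mapped to mm9 and the tools were TopHat and bedtools, per the submitters' processing notes. Their versions, the strand setting and the reads that form the scaling total are not given in the sources used here. Overlapping and antisense genes therefore cannot be told apart. RPKM holds no counts, so the depth is unknown and no interval or detection floor is given. RPKM times length summed to 0.825 and 0.810 of the total that RPKM is scaled to in the wild-type libraries. The 4 mutant libraries were not used.

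The table held 26531 transcripts with values (1 row without values was dropped) and 22098 names, of which 3305 had several transcripts, and 26 names are numbers left by a spreadsheet. The transcript with the highest mean stood for its name. Among 1176 names with several transcripts and one at 10 RPKM or more, it held a median of 95.1% of the sum. No test was run, since 1 group is described. A fold between libraries is on the log2(RPKM + 0.5) scale. There were 33 lists with 751 members, 745 of them in the table, and 39 families by name.

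Genes were named by rule: the 30 highest names, the 15 highest after them outside families and housekeeping lists, up to 8 highest and 4 lowest members of each list (every member of lists with at most 26), 2 members of each family, and the 8 widest gaps between the libraries in each direction. Names that are not symbols were passed over, and a few genes that meet the rule are not reported here. Names in the text outside this rule (genes in longer lists, Beta-s, some noncoding rows, genes of the closing section) were chosen after their values were seen. Members and lists were chosen with earlier results of these data known. RefSeq names and promoters (GRCm38.p6) were matched by accession (97.7% of transcripts), and near copies were found with BLAST 2.17.0 against GENCODE M21 transcripts. Python 3.11.15, pandas 2.3.3 and numpy 2.4.6 were used, and the summaries were tested on simulated data.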

Additional observations from a re-analysis of the deposited data

How the results depend on the processing

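The 100 names highest by RPKM times length, that is by share of reads, held 16.0% of that sum. The 100 names highest by RPKM held 22.0% of summed RPKM. Names were ranked anew for the share of reads, so the 2 sets of 100 need not be the same. The correlation between the libraries was 0.995 with no filter on low values, since names at 0 in both then count. At 3 RPKM 32 markers of other cells were on in both libraries, and at 0.5 RPKM 89. The count of names on in both ranged from 8379 at 3 RPKM to 10675 at 0.5 RPKM, and was 9889 with transcripts summed and 9113 with the longest transcript. Names over 2-fold apart numbered 158 with a pseudocount of 0.1 and 85 with 1. Without replicate 1 or replicate 2, 10132 and 10025 names were on, and 82 and 65 markers of other cells. Of the 72 counts for lists and families, 20 moved by over 1.5 times at 3 RPKM, 15 at 0.5 RPKM, 7 without replicate 1, 3 without replicate 2, 1 with the longest transcript and 0 with transcripts summed. No paired analysis was possible because only 1 group is described and no test was run. With 2 libraries and unknown depth, values near 1 RPKM cannot be ranked, and a difference between the libraries has no replicate.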

Other observations

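Genes of energy supply in the mitochondria were on in most cases. Complex I subunits had 33 of 37 members on and nuclear ATP synthase subunits 14 of 17, the latter led by Atp5a1 with 290.4 and 299.6 RPKM and Atp5b with 272 and 280.3. Cox4i1, of cytochrome c oxidase, had 242 and 237. The summed RPKM was 1278 and 1276 for complex I, 1175 and 1102 for the ATP synthase and 576 and 578 for cytochrome c oxidase. Single members differed more: Atp5k of the ATP synthase, with 2.9 and 8.8 RPKM, and Cox6a2 of cytochrome c oxidase, with 3.9 and 12.5, were over 2-fold higher in replicate 2. Ucp2, a carrier of the inner mitochondrial membrane, had 270.2 and 290.3, and Scd1, which makes unsaturated fatty acids, 352 and 296.

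Several names among the highest 50 belonged to none of the lists. Serinc3, a membrane protein, had 811 and 714 RPKM, Sh3bgrl3 683 and 752 and Shisa5 573 and 574. Psap, which yields the saposins of the lysosome, had 539 and 597, Laptm5, a lysosomal protein that lowers surface receptor levels, 522 and 453, and Fth1, the ferritin heavy chain, 479 and 438. Gnb2l1, now called Rack1, a scaffold on the ribosome, had 1012 and 841. Atp2a3, the calcium pump of the endoplasmic reticulum in blood cells, had 393 and 447, and Gnai2, a G protein subunit that couples chemokine receptors, 421 and 439.

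In families that were mostly off, single members stood out. Wnt10a had 7.3 and 8.4 RPKM and Wnt10b 2.9 and 6.2 among 19 Wnt ligands, of which 2 were on. Sox4, a factor of early lymphocytes, had 16.1 and 17.4 with 2 of 19 Sox genes on. Scn4a, a sodium channel of muscle, had 10.5 and 9.2 with 1 of 14 on, and Col5a3, a collagen, had 20.7 and 42.8 and was over 2-fold higher in replicate 2. Foxp1 and Foxo1 led the Fox genes with 87.5 and 81.7 for Foxp1, and 79.7 and 72.3 for Foxo1, and 13 of 45 were on.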
